A study of Homo sapiens with 12 samples.

Results

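Transfer RNA (tRNA) genes were examined in an enhanced crosslinking and immunoprecipitation (eCLIP) data set of QKI, an RNA-binding protein of the STAR family that contacts RNA through a KH domain and is best known as a regulator of splicing. A locus was taken as all clusters of the 2 endogenous QKI libraries whose annotated name began with tRNA, with 1 locus per name. This gave 53 loci among 493704 features, a feature being a tRNA locus or a region merged from overlapping clusters of the same strand in the endogenous libraries. The names covered 21 amino acid labels and 28 anticodons, on 16 chromosomes. Of these labels, SeC is selenocysteine, Sup a suppressor whose anticodon pairs with a stop codon, and Und an entry with an undetermined anticodon.

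The cells were HEK293T, a human embryonic kidney line (HEK293xT in the series' title), and 3 groups of 2 immunoprecipitation libraries were used. The mutant group expressed myc-QKI-5(K120A; R124A), a tagged QKI-5 with 2 substitutions, from 10 µg of transiently transfected plasmid, and the antibody was anti-MYC. In the wild type group the plasmid encoded myc-QKI-5, with the same amount, the same 72 h of culture and the same antibody. In the endogenous group no plasmid is named and the antibody was anti-QKI. All cells were crosslinked at 254 nm and 400 mJ/cm2, and each immunoprecipitation had its own size-matched input library, so 12 libraries were sequenced. The tagged protein was made from a transfected plasmid in cells for which no deletion of QKI is named. The labels do not say whether the paired libraries of a group were separate cultures, and p-values therefore cover the spread of these libraries alone, possibly a technical one. In these bulk lysates, crosslinks in fewer cells and fewer crosslinks per cell cannot be told apart.

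tRNAs are short, highly structured RNAs made by RNA polymerase III from many near-identical gene copies. Each tRNA carries 1 amino acid and reads codons through its anticodon, after trimming of both ends, base modification and, for some genes, removal of a short intron. The selenocysteine tRNA differs from the others in that its gene is driven by elements upstream of the start, as the U6 small nuclear RNA genes are. A locus name gives the amino acid, the anticodon, a number for the mature sequence and a number for the gene copy. tRNA-Tyr-GTA-chr14-8 and tRNA-Tyr-GTA-chr9-4 carry a chromosome in place of the mature sequence number. The names held 47 different labels at this level. Of these, 6 were shared by 2 or more of the 53 loci (12 loci in all), for which the assignment of reads to a copy is uncertain. Copies outside the 53 loci, which names such as tRNA-Asp-GTC-2-11 imply, were not counted, so assignment may be uncertain at other loci too. Of the 53 loci, 46 matched a RefSeq symbol, for example TRR-TCG1-1 for tRNA-Arg-TCG-1-1 and TRU-TCA1-1 for tRNA-SeC-TCA-1-1.

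The value of a locus in a library was the authors' log2 fold of immunoprecipitation over size-matched input in the cluster with the highest −log10 p. The lists held 231814 and 272728 clusters in the mutant libraries, 226962 and 273269 in those of wild type, and 384347 and 231844 in the endogenous libraries. The anti-MYC lists held only clusters above input, that is, with a log2 fold over 0, whereas the endogenous lists kept clusters below input as well. Over the 1429 features listed in all 6 libraries, the 2 mutant libraries correlated with each other at 0.33 (Pearson's r across features, a description), the wild type pair at 0.78 and the endogenous pair at 0.87. Marker genes were read only as whether a region above input was present in both endogenous libraries: this held for 2 of 3 markers of the kidney line (PAX2 and LIN28B), 0 of 4 of pluripotent cells, 2 of 6 of cardiomyocytes and 1 of 3 of neurons.

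In the endogenous libraries, RNA at tRNA loci was depleted relative to input. Endogenous library 1 listed 52 of the 53 loci, of which 49 were below 0, and endogenous library 2 listed 30, of which 28 were below 0. Over all features listed in these libraries, 41.2% and 14.6% were below 0. The log2 fold of tRNA loci ran between -6.34 and 0.84 with a median of -3.26 in library 1, and between -5.64 and 1.15 with a median of -3.04 in library 2. The number of loci below 0 in each endogenous library that listed them was 48.

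The 4 loci with the lowest mean over both endogenous libraries decode tyrosine, glutamate and isoleucine. tRNA-Tyr-GTA-5-1 averaged -5.72 ± 0.11 (SD, n = 2), tRNA-Glu-TTC-4-1 averaged -5.33 ± 0.56 (SD, n = 2), and tRNA-Ile-AAT-4-1 averaged -5.21 ± 1.10 (SD, n = 2). tRNA-Glu-TTC-1-2 averaged -5.06 ± 0.27 (SD, n = 2). The SD of these 4 loci did not exceed 1.10, so each lay below input by several times the spread between its libraries. Among loci listed in endogenous library 1, the 3 proline loci had a median of -5.36.

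**Figure D1:**
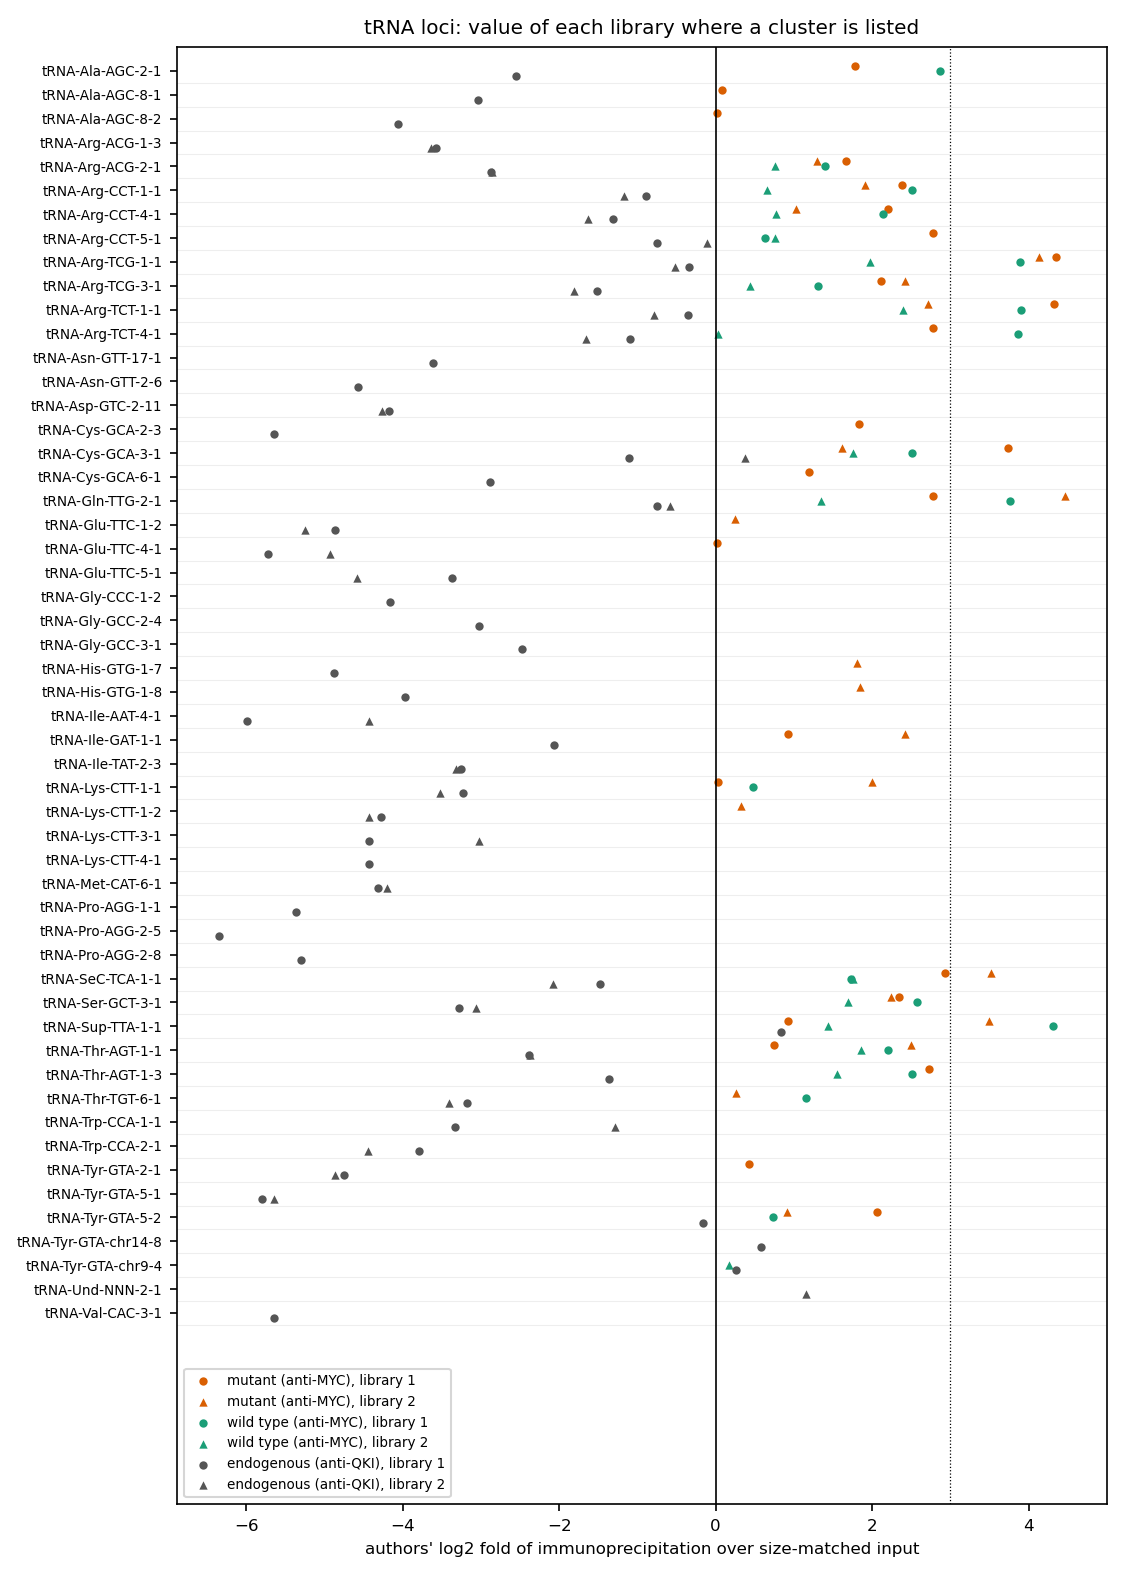
Log2 fold over size-matched input (x axis) of the 53 tRNA loci (y axis, by name) in the mutant, wild type and endogenous libraries; each point is 1 library, and no point means that no cluster was listed. The solid line marks input level and the dotted line a log2 fold of 3. Anti-MYC lists hold only values over 0, and 48 loci lie left of the solid line wherever an endogenous library listed them.

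In the anti-MYC libraries many of the same loci were listed above input, though not every listing could be told from input. In mutant library 1 the −log10 p of listed loci ran from 0 (tRNA-Ala-AGC-8-2) to 400 (tRNA-Arg-TCG-1-1). In wild type library 2 it ran from 0 (tRNA-Arg-TCT-4-1) to 40.0 (tRNA-Arg-TCT-1-1). Mutant libraries 1 and 2 listed 25 and 20 of the 53 loci above 0, wild type libraries 1 and 2 listed 19 and 16, and endogenous libraries 1 and 2 had 3 and 2. The same share over all features was 9.43% and 11% in the mutant pair, 18.2% and 19.2% in the wild type pair, and 44.5% and 38.8% in the endogenous pair. The mean number of loci differed by 5 between mutant and wild type and by 15 between wild type and endogenous, without overlap of the libraries in either comparison (exact two-sided permutation test, p = 0.333 for each, the smallest p that 2 against 2 libraries allow).

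Loci were then restricted to those below input in each endogenous library that listed them. Of these 48 loci, mutant library 1 listed 23 (47.9%, exact 95% interval 33.3 to 62.8) and mutant library 2 listed 18 (37.5%, 24.0 to 52.6). Wild type library 1 listed 17 (35.4%, 22.2 to 50.5) and wild type library 2 listed 13 (27.1%, 15.3 to 41.8). Of the 164967 features chosen the same way, the mutant libraries listed 12.3% and 15.3% and the wild type libraries 9.95% and 10.7%. The intervals cover counting error only, and copies of a tRNA are not independent.

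As a ratio, the tRNA share exceeded that of all features by less where both endogenous libraries had listed a value below 0. Mutant libraries 1 and 2 then listed 15 and 14 of 28 tRNA loci, against 31% and 40.5% of the 7342 features chosen the same way. For the wild type libraries the numbers were 14 and 12 of 28 loci, against 22.6% and 20.4% of features. The exact 95% interval of the tRNA share was 33.9 to 72.5 in mutant library 1 and 30.6 to 69.4 in mutant library 2. It was 30.6 to 69.4 in wild type library 1 and 24.5 to 62.8 in wild type library 2. These intervals treat loci as independent, which copies of a tRNA are not, so no difference from all features is read from them. Features also differed in length, with a median span of 61 bases for tRNA loci and 43 bases for features below input, and the part of length in the listing was not tested.

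**Figure D2:**
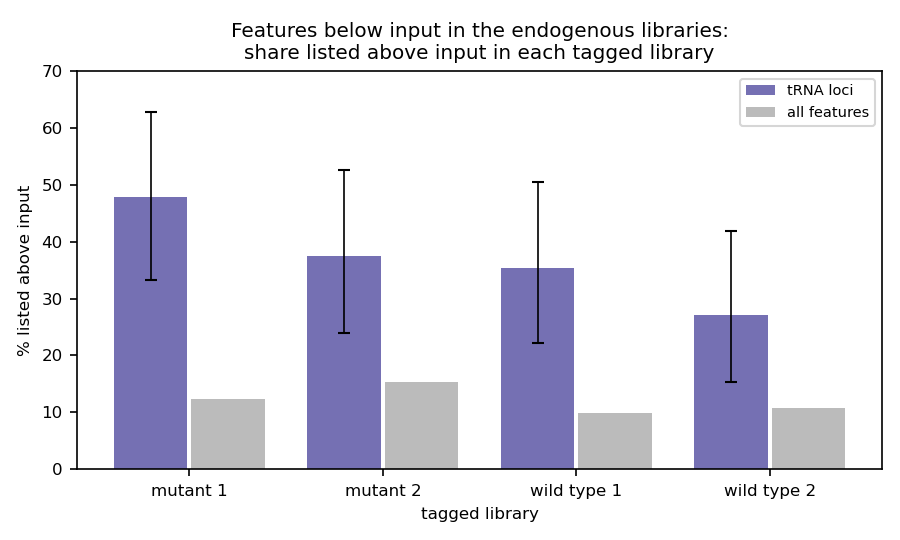
Percent of features listed above input in each anti-MYC library (x axis), for the 48 tRNA loci and for all 164967 features that were below input in each endogenous library that listed them. Bars start at 0 and error bars are exact 95% binomial intervals; the tRNA share lies above that of all features in the 4 libraries, from 47.9% against 12.3% in mutant library 1 to 27.1% against 10.7% in wild type library 2.

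Strong enrichment was seen at few loci. With the log2 fold and the −log10 p both at 3 or more, mutant libraries 1 and 2 had 3 and 4 enriched tRNA loci, wild type libraries 1 and 2 had 5 and 0, and the endogenous libraries had 0 and 0. Over all features, 0.00972% and 0.049% met these thresholds in the mutant libraries, 0.885% and 0.928% in those of wild type, and 2.64% and 2.16% in the endogenous libraries. The enriched loci in mutant library 1 were tRNA-Arg-TCG-1-1, tRNA-Arg-TCT-1-1 and tRNA-Cys-GCA-3-1. In mutant library 2 they were tRNA-Arg-TCG-1-1, tRNA-SeC-TCA-1-1, tRNA-Gln-TTG-2-1 and tRNA-Sup-TTA-1-1. In wild type library 1 they were tRNA-Arg-TCG-1-1, tRNA-Arg-TCT-1-1, tRNA-Arg-TCT-4-1, tRNA-Gln-TTG-2-1 and tRNA-Sup-TTA-1-1. The number of enriched loci differed by 1 between mutant and wild type and by 2.5 between wild type and endogenous, with overlapping or tied libraries (exact two-sided permutation test, p = 1 for each). All 5 wild type enriched loci came from library 1.

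The median log2 fold over the tRNA loci listed above 0 was 2.07 and 1.95 in mutant libraries 1 and 2, 2.50 and 1.39 in those of wild type, and 0.58 and 0.76 in those of endogenous QKI. Over all features listed above 0 it was 0.68 and 0.90 in the mutant pair, 1.24 and 1.14 in the wild type pair, and 0.92 and 1.15 in the endogenous pair. The tRNA median was thus above the median of all features in the 4 anti-MYC libraries and below it in both endogenous libraries. The endogenous tRNA medians rest on only 3 and 2 loci, since loci below 0 do not enter them. Mutant and wild type did not separate in the tRNA median (difference 0.06, exact two-sided permutation p = 1), while wild type lay 1.28 above endogenous (p = 0.333, the smallest possible, exact permutation test).

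Listing was uneven across loci. In the anti-MYC libraries, 22 loci were listed in none, 11 in 1, 3 in 2, 5 in 3 and 12 in all 4. Over all features, 38.3% were listed in at least 1 anti-MYC library and 0.555% in all 4, against 31 and 12 of the 53 tRNA loci. The endogenous values followed the same order: the median in endogenous library 1 was -1.21 for the loci listed in all 4, -3.18 for those listed in 1 to 3 and -4.17 for those listed in none.

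Loci were next grouped by amino acid. Arginine was the largest group with 9 loci, of which 8 and 6 were listed in mutant libraries 1 and 2, 8 and 8 in those of wild type, and 0 and 0 above input in those of endogenous QKI. Of the other 44 loci, 17 and 14 were listed in the mutant libraries, 11 and 8 in those of wild type, and 3 and 2 in the endogenous libraries. Arginine loci had a median of -1.09 in endogenous library 1, against -3.62 for the other loci. The arginine group was singled out after its values had been seen, so no test is given. The 3 alanine, the 3 cysteine and the 3 threonine loci were each listed in at least 1 anti-MYC library. The 3 glycine, the 3 proline, the 2 asparagine and the 2 tryptophan loci were listed in none.

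**Figure D3:**
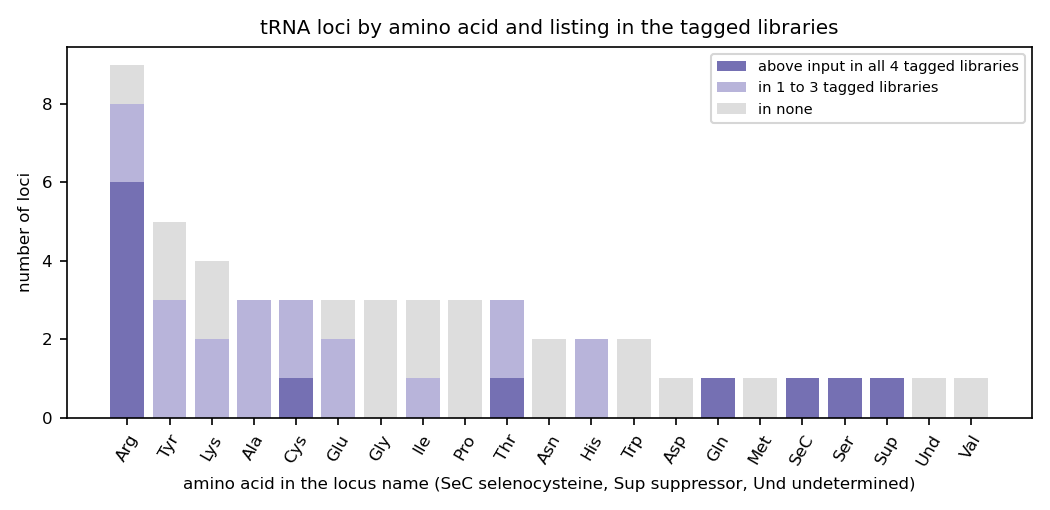
Number of tRNA loci (y axis, bars from 0) by the amino acid in the locus name (x axis), split into loci above input in all 4 anti-MYC libraries, in 1 to 3 of them and in none. Arginine holds 9 loci and 6 of the 12 loci listed in all 4 libraries; the loci for glycine, proline, asparagine and tryptophan are listed in none.

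The arginine anticodons TCG and TCT gave the highest arginine values. tRNA-Arg-TCG-1-1, at chr15:89878323-89878381 (hg19, plus strand) in an annotated noncoding exon, carries the anticodon that reads CGA codons. Its log2 fold was 4.35 and 4.13 in mutant libraries 1 and 2, 3.89 and 1.97 in those of wild type, and -0.35 and -0.52 in those of endogenous QKI. Both mutant libraries were above both wild type libraries, and wild type library 2 was well below library 1. It had the highest mean of the loci listed in both mutant libraries, 4.24 ± 0.16 (SD, n = 2), against 2.93 ± 1.35 (SD, n = 2) for the wild type protein and -0.43 ± 0.13 (SD, n = 2) in endogenous.

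tRNA-Arg-TCT-1-1, at chr1:94313173-94313219 (hg19, plus strand), also in an annotated noncoding exon, reads AGA codons. It had 4.33 and 2.72 in the mutant pair, 3.91 and 2.39 in the wild type pair, and -0.35 and -0.78 in the endogenous pair. Mutant and wild type overlapped, with library 1 above library 2 in both groups. All 4 lay above the endogenous values, which the lists set in advance at a locus below input in both endogenous libraries. It had the highest mean in wild type, 3.15 ± 1.07 (SD, n = 2).

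The other TCG and TCT loci were lower. tRNA-Arg-TCG-3-1 had 2.12 and 2.43 in mutant libraries 1 and 2, 1.31 and 0.44 in those of wild type, and -1.52 and -1.81 in those of endogenous QKI. Both mutant libraries lay above both wild type libraries, as at 27.6% of all features tested. The endogenous values lay below 0, where the anti-MYC lists hold no values. tRNA-Arg-TCT-4-1 was listed in 1 mutant library, at 2.78, in both wild type libraries, at 3.87 and 0.02, and in both endogenous libraries, at -1.09 and -1.66. Its wild type libraries differed more than those of any other arginine locus.

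The CCT anticodon reads AGG codons and had 3 loci. tRNA-Arg-CCT-1-1 had 2.38 and 1.91 in the mutant pair, 2.50 and 0.66 in the wild type pair, and -0.89 and -1.17 in the endogenous pair. tRNA-Arg-CCT-4-1 had 2.20 and 1.02 in mutant libraries 1 and 2, 2.13 and 0.77 in those of wild type, and -1.31 and -1.63 in those of endogenous QKI. In both loci mutant and wild type overlapped, and the endogenous values lay below 0, where the anti-MYC lists hold no values. tRNA-Arg-CCT-5-1 was listed in 1 mutant library, at 2.78, in the wild type libraries at 0.63 and 0.76, and in the endogenous libraries at -0.74 and -0.11.

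The ACG anticodon had 2 loci that differed in listing. tRNA-Arg-ACG-2-1 had 1.67 and 1.29 in the mutant pair, 1.39 and 0.75 in the wild type pair, and -2.87 and -2.86 in the endogenous pair. tRNA-Arg-ACG-1-3 was listed in none of the anti-MYC libraries and averaged -3.61 ± 0.04 (SD, n = 2) in the endogenous libraries. It was the only arginine locus listed in none.

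Outside arginine, 6 loci were listed in all 4 anti-MYC libraries. tRNA-SeC-TCA-1-1, at chr19:45981854-45981946 (hg19, minus strand) within an intron of a coding gene, inserts selenocysteine at UGA codons. It had 2.93 and 3.52 in mutant libraries 1 and 2, 1.73 and 1.76 in those of wild type, and -1.48 and -2.07 in those of endogenous QKI. Both mutant libraries lay above both wild type libraries, and the endogenous values lay below 0, where the anti-MYC lists hold no values. The 2 wild type libraries were closer to each other than those of either other group.

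tRNA-Gln-TTG-2-1 carries glutamine and reads CAA codons. It had 2.78 and 4.46 in the mutant pair, 3.77 and 1.35 in the wild type pair, and -0.74 and -0.59 in the endogenous pair. Mutant and wild type overlapped widely, since each group had 1 high and 1 lower library.

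tRNA-Cys-GCA-3-1 carries cysteine and had 3.74 and 1.62 in mutant libraries 1 and 2, 2.52 and 1.76 in those of wild type, and -1.11 and 0.37 in those of endogenous QKI. The wild type values lay within the range of the mutant values. It had the highest endogenous mean of the loci listed in both endogenous libraries, -0.37 ± 1.04 (SD, n = 2).

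tRNA-Ser-GCT-3-1 carries serine on a tRNA with a long variable arm, a feature of serine tRNAs. It had 2.34 and 2.25 in the mutant pair, 2.57 and 1.69 in the wild type pair, and -3.28 and -3.07 in the endogenous pair. The mutant values lay between the wild type values, and the endogenous values lay far below 0, where the anti-MYC lists hold no values.

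tRNA-Thr-AGT-1-1 carries threonine and had 0.75 and 2.50 in mutant libraries 1 and 2, 2.21 and 1.85 in those of wild type, and -2.38 and -2.38 in those of endogenous QKI. It shares its mature sequence number with tRNA-Thr-AGT-1-3, which was listed in 3 anti-MYC libraries, so reads of these copies may not be separable. tRNA-Sup-TTA-1-1 had 0.93 and 3.50 in the mutant libraries and 4.32 and 1.44 in the wild type libraries. Endogenous library 1 had 0.84 and library 2 listed no cluster, which makes it the only one of the 12 loci above input in endogenous library 1.

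The authors' lists of reproducible peaks, made over the 2 libraries of a group, placed tRNA loci among the few peaks of the mutant. In the authors' deposited table for the mutant, 9 of 55 peaks (16.4%, exact 95% interval 7.77 to 28.8) lay on 3 tRNA loci. In that for wild type, 2 of 3671 peaks (0.0545%, 0.0066 to 0.197) lay on 1 locus. In that for endogenous QKI, 0 of 12409 peaks (0%, 0 to 0.0297) lay on a tRNA locus. Neighbouring peaks of 1 locus were counted separately and are not independent. The intervals treat them as independent, cover counting error only and are thus too narrow.

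In the authors' deposited table for the mutant, tRNA-Arg-TCG-1-1 held 3 peaks with log2 folds of 4.32, 4.24 and 3.85. The authors' deposited table for the mutant gave tRNA-SeC-TCA-1-1 4 peaks, with log2 folds between 3.22 and 3.47. tRNA-Arg-TCT-1-1 held 2 mutant peaks (3.56 and 3.48) and 2 wild type peaks (3.15 and 3.10) in the authors' deposited tables. It was the only tRNA locus with reproducible peaks in both tagged groups.

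For the mutant against wild type, the question was whether the 2 substitutions changed recovery of tRNA loci. No tRNA locus differed past the threshold. Of 12 loci listed in all 4 anti-MYC libraries, 0 were called higher and 0 lower (limma over 2742 features, Benjamini-Hochberg adjusted p of at most 0.05). Over all features tested, 0% were called higher and 2.48% lower in the mutant. At an unadjusted p under 0.05, 2 of the 12 loci were higher in the mutant and 0 lower, beside 5.32% and 9.92% of all features. These were tRNA-SeC-TCA-1-1, with a difference of 1.48 (SE 0.47, limma, Benjamini-Hochberg adjusted p = 0.184), and tRNA-Arg-TCG-3-1, with 1.40 (SE 0.50, adjusted p = 0.247).

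The difference of mutant minus wild type was positive in 10 of the 12 loci, with a median of 0.47, beside a median of 0.14 over the other features and 56.6% of features with a positive difference. Both mutant libraries were above both wild type libraries in 3 loci, tRNA-SeC-TCA-1-1, tRNA-Arg-TCG-1-1 and tRNA-Arg-TCG-3-1, and below both in 0. Over all features tested, 27.6% lay above in this sense and 21.6% below. Single libraries set the sign at 8 of the 12 loci: without wild type library 2, for example, the difference of tRNA-Gln-TTG-2-1 was -0.15, whereas with all libraries it was 1.06 (SE 0.88).

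The median difference over tRNA loci was -0.03 with wild type library 2 left out (14 loci tested), 1.02 without wild type library 1 (12 loci), 0.80 without mutant library 2 (15 loci) and 0.40 without mutant library 1 (12 loci). In simulated data on these 2742 features, 40% of features shifted by 3 on the log2 scale were called, 26% of those shifted by 2, and 0% of those shifted by 1.

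Against endogenous QKI, the 11 tRNA loci listed in all 6 libraries were higher in both tagged groups. Of these 11 loci, 10 were below input in both endogenous libraries, and the anti-MYC lists hold only values over 0. At these loci the lists fix the direction. They also set a least size, since each difference must exceed the depth of the endogenous mean below input. The calls against endogenous QKI therefore restate in part the endogenous values. Antibody and transfection also differ between the groups and cannot be told apart from the protein. In the mutant, 11 of 11 loci passed (limma over 1429 features, Benjamini-Hochberg), with differences of 3.04 to 5.47 and adjusted p between 1.08e-05 and 0.00509. Over all features tested, 13.9% were called higher in the mutant. In wild type, 11 of 11 loci passed as well, with differences of 2.51 to 5.31 and adjusted p between 0.000102 and 0.0341 (limma, Benjamini-Hochberg), beside 6.23% of all features. The 2 comparisons share the endogenous libraries and are given side by side.

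Features below input in both endogenous libraries are the nearer yardstick. There were 219 of them among the features tested, including 10 of the 11 tRNA loci. Of these, 74.9% were called higher in the mutant, with a median difference of 1.95, and 34.7% in wild type, with a median difference of 1.47. Over the 11 tRNA loci the median difference was 4.09 in the mutant and 3.36 for wild type, while over the other features tested it was -0.49 in the mutant and -0.24 for wild type. The lowest tRNA difference, 3.04 in the mutant and 2.51 for wild type, was above the median of those 219 features in both comparisons. It belonged to tRNA-Cys-GCA-3-1, which was above input in endogenous library 2 and so is not one of the 219. The 219 features were not matched to the tRNA loci for depth below input, so this is not read as an excess at tRNA loci.

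The largest differences were at tRNA-Ser-GCT-3-1, 5.47 (SE 0.57, limma, Benjamini-Hochberg adjusted p = 1.08e-05) for mutant minus endogenous and 5.31 (SE 0.57, adjusted p = 0.000102) for wild type minus endogenous. The endogenous mean of this locus was -3.17, so its listing above 0 sets part of this size. tRNA-SeC-TCA-1-1 followed in the mutant with 5.01 (SE 0.56, limma, adjusted p = 2.28e-05), against 3.52 (SE 0.56, adjusted p = 0.00235) in wild type. tRNA-Arg-ACG-2-1 differed from endogenous by 4.34 (SE 0.56) in the mutant and by 3.94 (SE 0.56) in wild type. The smallest differences were at tRNA-Cys-GCA-3-1, 3.04 (SE 0.74) in the mutant and 2.51 (SE 0.74) in wild type. The number of wild type calls fell without wild type library 1 and without either endogenous library. The differences stayed positive at the loci tested, which the lists fix in advance at loci below input in the endogenous libraries. Without wild type library 1, 5 of 11 loci passed with a median difference of 2.41, beside 29 of 2088 features. Without endogenous library 1, 4 of 11 passed with a median of 3.45, beside 9 of 1764 features, and without endogenous library 2, 4 of 12 passed with a median of 3.26, beside 39 of 2407 features. With missing clusters set to 0, 10 of 19 loci passed in wild type, beside 122 of 32337 features. In that setting tRNA-Arg-CCT-1-1, tRNA-Arg-TCG-3-1 and tRNA-Cys-GCA-3-1 did not pass (limma, Benjamini-Hochberg adjusted p = 0.0616, 0.0551 and 0.0947).

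**Figure D4:**
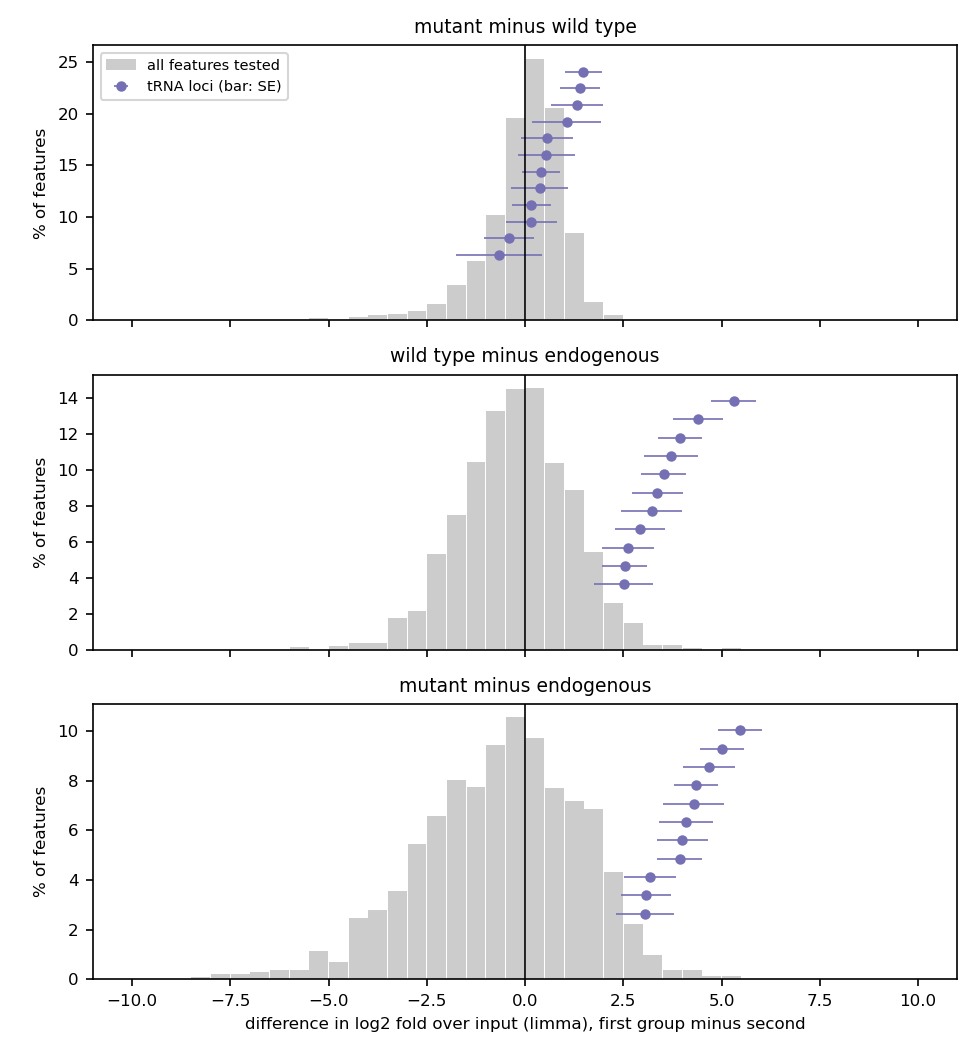
Differences in log2 fold over input from limma (x axis, first group minus second) for the tRNA loci tested (points, bars are the SE, stacked by size with no meaning of height) over the distribution of all features tested (grey bars, percent of features on the y axis, from 0). In mutant minus wild type the 12 loci lie between -0.67 and 1.48, within the range of all features tested. In both contrasts with endogenous QKI the 11 loci lie at or above 2.51.

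Where clusters fell along a locus was described from the annotation. Between 15.3% and 100% of the bases of a locus' endogenous clusters carried the tRNA name, with a median of 85.7%, and 49 of the loci had more than 50% on it (tRNA-Tyr-GTA-chr9-4 had the lowest share). Noncoding exons overlapped 18 loci, of which 11 were listed in at least 1 anti-MYC library, and introns of coding genes overlapped 24, of which 16 were listed.

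Loci listed in only 1 tagged group were mostly single-library values. The number listed in at least 1 mutant library and in no wild type library was 11, and the reverse held for 1, tRNA-Tyr-GTA-chr9-4 at 0.18. Over all features, 10.6% were listed in the mutant only and 21.1% in wild type only, in the same sense. Among the 11, tRNA-Ile-GAT-1-1 was listed in both mutant libraries, at 0.93 and 2.43, and the histidine copies tRNA-His-GTG-1-7 and tRNA-His-GTG-1-8, which share a mature sequence, were listed in mutant library 2 at 1.81 and 1.84. Because a locus at or below input in an anti-MYC library is not listed, absence from a list gives no value.

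Other RNAs made by RNA polymerase III were set beside the tRNA loci. Among 103 features of 7SK, 7SL, RMRP, RPPH1, Y and vault RNAs, 26 and 30 were listed above input in the mutant libraries, 22 and 15 in those of wild type, and 28 and 16 in the endogenous libraries. Their median log2 fold above 0 was 0.93 and 0.78 in the mutant pair, 1.00 and 0.85 in the wild type pair, and 1.16 and 1.56 in the endogenous pair. Among 97 U6 copies, 25 and 28 were listed in the mutant libraries, 39 and 32 in those of wild type, and 70 and 55 in the endogenous libraries. The median log2 fold above 0 of U6 copies was 1.93 and 2.24 in the mutant pair, near the 2.07 and 1.95 of tRNA loci. It was 2.22 and 1.60 in the wild type pair, and 1.96 and 2.15 in the endogenous pair. In the mutant libraries 6.19% and 6.19% of U6 copies were enriched by the thresholds above, against 5.66% and 7.55% of tRNA loci. Of the 67 other polymerase III features below input wherever the endogenous libraries listed them, the mutant libraries listed 32.8% and 41.8% and the wild type libraries 16.4% and 13.4%. For 234 small nucleolar RNA features chosen the same way, the mutant libraries listed 25.2% and 27.4% and the wild type libraries 6.41% and 1.28%. The mutant shares of the other polymerase III features thus lay on either side of 37.5%, the lower mutant share of tRNA loci. The difference between tRNA loci and these classes was not tested.

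Messenger RNAs of the tRNA pathway were read from a list of 90 genes for transcription, processing, modification, export and aminoacylation, of which 87 had a feature. No gene of the list held a reproducible peak of the mutant in the authors' deposited tables, while 10 genes held 17 of the 3671 peaks of wild type (0.463%) and 18 genes held 43 of the 12409 peaks of endogenous QKI (0.347%). The mutant list holds 55 peaks, too few for 0 to be read as a difference from these shares. The share of all features that lies in these genes is not set beside them, so no enrichment of the list is read from them. GARS, which charges tRNA with glycine, held 5 endogenous peaks and 1 of wild type in the authors' deposited tables, and its leading endogenous peak had a log2 fold of 6.01. The authors' deposited tables gave FARSB, a subunit of the phenylalanine enzyme, and POLR3A, the largest subunit of RNA polymerase III, 4 endogenous peaks each, with leading log2 folds of 5.97 and 5.88. DARS, EPRS and GTF3C1 held 3 endogenous peaks each in the authors' deposited tables, and TSEN15 and XPO5 tied with them at 3.

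The leading GARS region was not listed in the mutant libraries and had log2 folds of 5.08 and 3.50 with wild type QKI-5 and 6.29 and 5.39 with endogenous QKI. The leading POLR3A region was also not listed in the mutant and had 4.84 and 5.88 with wild type QKI-5 and 4.99 and 5.97 with endogenous QKI. The leading DARS region, in the gene of the aspartate enzyme, had 0.61 and 1.11 in mutant libraries 1 and 2, 2.00 and 1.98 in those of wild type, and 4.91 and 5.33 in those of endogenous QKI, without overlap between the groups. Features of the list that could be tested lay in few genes. For mutant against wild type, 6 features were tested and 0 passed (limma, Benjamini-Hochberg). Against endogenous QKI, 3 features were tested, of which 2 (in DARS and GARS) were lower in the mutant, beside 30.7% of all features. The GARS feature tested was not the leading region, which had no value in the mutant. In wild type, 1 feature (in DARS) was lower, beside 12.2% of all features.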

How the data were processed

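The members and gene lists were chosen with earlier results of these data known. The submitters' processing notes name hg19, STAR, cutadapt, SAMtools and UMI-tools. No version and no peak caller is given in the sources used here. The authors deposited, per cluster, a log2 fold over size-matched input and a −log10 p, which is capped at 400. The deposited files used here give no read counts, so depth is unknown. The design text of the series speaks of differentiating stem cells, whereas the labels give HEK293T. Coordinates are hg19, 1-based.

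For each feature and library, the same-strand overlapping cluster (at least 1 base) with the highest −log10 p was taken, then the longest, then the highest log2 fold. This order matters in the endogenous lists, where clusters below input have a −log10 p of 0. Features listed in all libraries compared were tested with limma 3.58.1 (lmFit, eBayes) in R 4.3.3, with Benjamini-Hochberg adjustment over all features. The test was tried on simulated data. Overlaps used BEDTools 2.31.1, and exact permutation tests and binomial intervals SciPy 1.17.1. Loci were named by reproducible peaks, by the highest and lowest group means and by limma calls, and others where a count or group is described, after their values were seen. Same-numbered libraries were not paired (correlation of deviations -0.09, -0.07 and -0.08). tRNA sequences were not used here.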

Additional observations from a re-analysis of the deposited data

How the results depend on the processing

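No tRNA locus was called between mutant and wild type under any alternative tried. With the replicate block the counts were 0 there and 11 in each comparison with endogenous QKI, as without it. Beside these, 100 of 1429 features were called higher in wild type and 211 of 1429 in the mutant, each against endogenous QKI. The library numbers share no pairing. Without single libraries, the count called higher ran between 4 and 12 for wild type minus endogenous and between 10 and 13 for mutant minus endogenous; a lone library was assumed to vary like the other groups. The difference in enriched loci ran between -1.5 and 3.5 for mutant minus wild type and between 0 and 5 for wild type minus endogenous. The difference in listed loci ran between 2.5 and 7.5, and between 13.5 and 16.5. The difference in medians ran between -0.49 and 0.62 for mutant minus wild type. With a log2 fold of at least 2 the differences in enriched loci were 2.5 and 6, and with at least 4 they were 1.5 and 0.5. With missing or negative values set to 0, both median differences were 0, since most loci were not above 0 in any given library; the median over loci above 0 in all 6 libraries could not be computed, as there was no such locus. For mutant minus wild type, the sign of 8 loci changed without 1 library: tRNA-Arg-CCT-1-1 (-0.36 to 1.48), tRNA-Arg-CCT-4-1 (-0.52 to 0.84), tRNA-Arg-TCT-1-1 (-0.44 to 1.18), tRNA-Cys-GCA-3-1 (-0.52 to 1.60), tRNA-Gln-TTG-2-1 (-0.15 to 2.27), tRNA-Ser-GCT-3-1 (-0.28 to 0.60), tRNA-Sup-TTA-1-1 (-2.11 to 0.77) and tRNA-Thr-AGT-1-1 (-1.28 to 0.47). Over all features, the number called lower in the mutant against wild type was 68, but 400 with missing clusters set to 0, 118 with a mean −log10 p of at least 2, 104 with the spread of all 6 libraries, 32 on regions merged from the tagged libraries, and 13 to 120 without single libraries. Centring each library on its median turned 89 higher and 175 lower into 172 and 104 for wild type minus endogenous, and 199 and 439 into 333 and 300 for mutant minus endogenous; the 11 tRNA loci stayed called higher in both. The causes were not tested.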

Other observations

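The 15 features of mitochondrial tRNA genes, which are transcribed inside the organelle and not by RNA polymerase III, were read in the same way as the nuclear tRNA loci, with no test between them. Of the 15, 12 and 8 were listed above 0 in the mutant libraries, 13 and 9 in those of wild type, and 13 and 6 in the endogenous libraries. Their median log2 fold above 0 was 1.97 and 1.28 in the mutant pair, 0.67 and 1.65 in the wild type pair, and 0.51 and 0.70 in the endogenous pair. By the thresholds above, 5 and 0 were enriched in the mutant pair, 1 and 1 in the wild type pair, and 0 and 0 in the endogenous pair. MT-TV, the valine tRNA gene, had log2 folds of 0.49 and 1.52 in the mutant pair, 3.38 and 3.73 in the wild type pair, and 1.58 and 0.87 in the endogenous pair. MT-TF, the phenylalanine tRNA gene, had 1.42 and 0.80 in mutant libraries 1 and 2, 0.82 and 1.65 in those of wild type, and 1.08 and 1.15 in those of endogenous QKI. Small nucleolar RNAs, which guide RNA modification, were low in the endogenous libraries as tRNA loci were, with 234 of 244 features below input in each endogenous library that listed them. Of the 244, 60 and 66 were listed above input in the mutant libraries, 18 and 8 in those of wild type, and 8 and 7 in the endogenous libraries.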
